A study of Mus musculus with 74 samples.

Results

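The genes described here are 60 genes whose transcripts were less abundant at the end than at the start of the day of sex determination, in XY and in XX mouse gonads alike. They were selected by their values: the mean at E12.0 minus the mean at E11.0 was at or below -0.5 on the log2 scale in XY and in XX gonads, as means of both strains, and below -0.2 in each of the 4 groups of strain and karyotype. Each gene was read by its probe with the highest mean over all arrays. Of 16593 named genes on the array, 74 met these limits, and 14 of them were set aside by name (6 Hox genes and a globin, with Adh1, Bmp4, Crabp2, Cxcl12, Foxc1, Gfra3 and Nr2f1), which left the 60 members. No collagen gene met the limits.

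Transcript abundance was measured on 74 arrays, each holding RNA of 1 pair of gonads cut away from the mesonephroi, from XY (38 arrays) and XX (36 arrays) embryos of the wild-type inbred strains 129S1/SvImJ (129S1) and C57BL/6J (B6). Embryos were staged by tail somites to 6 evenly spaced stages that ran from E11.0 to E12.0. Of the 24 groups of strain, karyotype and stage, 21 held 3 arrays, while the earliest 129S1 XY group held 5, the latest 129S1 XY group held 2 and the B6 XY group of E11.2 held 4. No transgene or treatment is named for any embryo, and all levels below are quantile-normalized log2 values, so that a step of 1 is a doubling.

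In this window the gonad leaves its bipotential state. The genital ridge forms as the coelomic epithelium thickens over a loose mesenchyme, is entered by germ cells and by endothelium, and is then driven by Sry towards Sertoli cells in XY embryos or, without it, towards pre-granulosa cells in XX embryos. The members include secreted modulators of Wnt, BMP and vascular signaling, receptors known best from axon guidance, homeobox and bHLH factors of embryonic mesenchyme, and enzymes of glutathione and retinoid metabolism. In whole gonads, fewer cells of a type and less RNA per cell cannot be told apart.

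Xist and the Y-linked Eif2s3y separated all XY from all XX arrays without overlap, and no 2 arrays were identical. All 12 Sertoli markers rose between E11.2 and E11.8 in XY gonads and 6 of 8 pre-granulosa markers rose in XX gonads (limma, adjusted p under 0.05). Of 15 listed markers of mesonephric tubules and duct, 12 were on the array and 8 were bright enough to be tested. The mean of these 8 lay between 7.692 and 7.997 at E11.8 and 7.63 and 8.17 at E11.0 in XY arrays. In XX arrays it lay between 7.73 and 8.13 at E11.8 and 7.785 and 8.284 at E11.0. Dim markers were left out of the mean, so these levels do not show whether such tissue was present. 1 array stood apart in several members: the first replicate of B6 XY at E11.2 lay above its 3 companions in the mean level of endothelial markers (9.52 against 9.12 to 9.31), of macrophage and leukocyte markers (8.65 against 8.19 to 8.28), of mesenchyme markers (9.62 against 9.11 to 9.34), of neural crest and neuron markers (8.896 against 8.47 to 8.71) and of smooth muscle and pericyte markers (9.04 against 8.04 to 8.30), and below them in markers of coelomic epithelium (9.10 against 9.21 to 9.36), in Sertoli markers (7.68 against 7.93 to 7.95) and pre-granulosa markers (8.56 against 8.95 to 9.16). Only the groups of 4 or 5 arrays, B6 XY at E11.2 and 129S1 XY at E11.0, were searched for arrays that stood apart in single members. The median correlation of this array within its group was 0.9689. That of the first replicate of B6 XX at E12.0 was lower, at 0.9632. Counts with and without the first replicate of B6 XY at E11.2 are given below.

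Between E11.2 and E11.8 the trends of 3 members, Igdcc3, Peg3 and Aldh1a2, differed between karyotypes, with the steeper fall in XY gonads (1.45% of all probes). The calls for Peg3 and Aldh1a2 ended with some single arrays left out. From E11.0 to E12.0 the difference was -0.75 in XY and -0.74 in XX gonads for Peg3, and -0.71 and -0.62 for Aldh1a2. Promoters of these 3 members and of Mgarp, the member with the largest difference, are printed to show what lies around their starts. Each is the RefSeq window of 300 bases on GRCm38.p6, from 250 bases before to 50 after the annotated start, and capitals mark matches on either strand to 8 motifs searched: the E-box CACGTG, the GC-box GGGCGG, the CCAAT box, the core promoter element TATAAA, the Nr5a1 motif CAAGGTCA, the Tead motif ACATTCC, the Gata motif AGATAA and the hypoxia motif TACGTG. Mgarp lies at chr3:51396498-51396797 (minus strand), Igdcc3 at chr9:65140904-65141203 (plus strand), Peg3 at chr7:6730370-6730669 (minus strand) and Aldh1a2 at chr9:71215539-71215838 (plus strand).
Mgarp: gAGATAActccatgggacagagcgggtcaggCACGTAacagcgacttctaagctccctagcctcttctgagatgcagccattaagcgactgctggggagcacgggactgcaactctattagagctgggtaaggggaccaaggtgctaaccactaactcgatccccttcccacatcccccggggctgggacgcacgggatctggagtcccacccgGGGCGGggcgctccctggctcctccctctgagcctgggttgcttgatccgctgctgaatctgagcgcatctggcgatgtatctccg
Igdcc3: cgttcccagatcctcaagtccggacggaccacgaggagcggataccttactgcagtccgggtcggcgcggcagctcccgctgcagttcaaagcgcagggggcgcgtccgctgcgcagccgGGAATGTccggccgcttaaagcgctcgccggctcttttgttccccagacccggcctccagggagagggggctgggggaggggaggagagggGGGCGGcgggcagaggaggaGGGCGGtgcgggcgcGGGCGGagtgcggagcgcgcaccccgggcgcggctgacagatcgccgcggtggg
Peg3: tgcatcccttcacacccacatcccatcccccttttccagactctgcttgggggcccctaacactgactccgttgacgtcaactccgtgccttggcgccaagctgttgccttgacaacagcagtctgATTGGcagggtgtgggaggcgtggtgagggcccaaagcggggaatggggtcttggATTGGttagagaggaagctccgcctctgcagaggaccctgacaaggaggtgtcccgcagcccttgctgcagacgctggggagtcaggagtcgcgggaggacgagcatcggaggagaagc
Aldh1a2: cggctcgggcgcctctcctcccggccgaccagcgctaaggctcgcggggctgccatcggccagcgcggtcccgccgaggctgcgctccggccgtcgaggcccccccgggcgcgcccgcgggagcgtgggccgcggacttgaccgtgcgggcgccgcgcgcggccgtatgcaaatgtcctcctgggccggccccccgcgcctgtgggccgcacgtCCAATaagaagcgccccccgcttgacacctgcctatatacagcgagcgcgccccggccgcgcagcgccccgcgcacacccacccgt
Capitals stand for the Gata motif, the hypoxia motif (read on the other strand) and the GC-box in Mgarp, for the Tead motif (read on the other strand) and the GC-box in Igdcc3, and for the CCAAT box in Peg3, where it is read on the other strand, and in Aldh1a2.

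A window was at hand for 51 members and for 13336 named genes of the array. The GC-box was present in 52.9% of member windows and 50.3% of all windows, the CCAAT box in 49% and 38.8%, the TATAAA element in 13.7% and 12.7%, and the Gata motif in 6 member windows and 9.7% of all. The E-box was present in 5.9% of member windows and 8.5% of all, the Tead and hypoxia motifs in 3.9% each of member windows and 3.2% each of all, and the Nr5a1 motif in 0 of 51 member windows and 1.2% of all. The median GC content was 60.7% in member windows and 57.7% in all windows. The genes lay on 18 different chromosomes, 4 of them on X.

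By selection every member was lower at E12.0 than at E11.0. The median difference over the 60 members was -0.71 in XY and -0.68 in XX gonads, beside -0.0053 and -0.0049 over all 16593 genes, and 32 members differed more in XY and 28 more in XX gonads. Only Mgarp and Flrt3 differed by 1 or more in both karyotypes, and 11 members did so in at least 1 of them. These values chose the members and are given as a description.

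Mgarp, a mitochondrial protein found in steroid-producing tissues, had the largest difference. Its levels ran from 7.73 to 8.54 with a median of 8.12 in XY gonads at E12.0, against 9.29 to 10.39 with a median of 10.02 in XY gonads at E11.0. In XX gonads they ran from 8.13 to 8.45 (median 8.38) at E12.0, against 9.05 to 10.85 (median 9.65) at E11.0. The E12.0 arrays lay below every E11.0 array in both karyotypes, and the group means at E12.0 came to 0.285 of those at E11.0 in XY and 0.394 in XX gonads on the linear scale.

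Flrt3, a leucine-rich repeat membrane protein that binds FGF receptors and Unc5 receptors, followed. Its levels were 8.52 to 9.44 (median 8.74) in XY gonads at E12.0, against 9.74 to 10.73 (median 10.43) at E11.0, and 8.94 to 9.84 (median 9.57) in XX gonads at E12.0, against 10.48 to 10.68 (median 10.62) at E11.0. Again no array of the later stage reached the earlier stage. For Ecm1, a secreted glycoprotein of the extracellular matrix, the XY levels were 8.85 to 10.11 (median 9.26) at E12.0 and 10.32 to 11.16 (median 10.86) at E11.0, while the XX levels overlapped, at 8.66 to 10.90 (median 10.23) at E12.0 and 10.85 to 11.19 (median 11.09) at E11.0.

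Igdcc3, an immunoglobulin-domain membrane protein, was tightly grouped at E12.0, at 9.80 to 9.94 (median 9.87) in XY gonads against 10.85 to 12.06 (median 11.46) at E11.0. In XX gonads it was 10.44 to 10.85 (median 10.74) at E12.0 and 11.26 to 12.07 (median 11.37) at E11.0. Gsta3, a glutathione S-transferase of the alpha class, showed the opposite tilt, with 8.64 to 9.34 (median 8.98) in XY gonads at E12.0 against 9.08 to 10.02 (median 9.76) at E11.0, and 7.89 to 8.39 (median 8.18) in XX gonads at E12.0 against 9.09 to 9.81 (median 9.47) at E11.0. Its XY arrays of the 2 stages overlapped and its XX arrays did not.

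The E12.0 arrays lay below all E11.0 arrays at 32 members in XY gonads (1.66% of all genes) and at 34 in XX gonads (1.2% of all genes), and at 19 in both. These counts follow from the selection, and nothing is read from them. The mean level of the members ran from 7.30 for Arg1, below the array median of 7.401, to 13.17 for Gpc3, with a median of 8.97, and 38.7% of all genes lay below the lowest member. Near the limit of -0.5, the members with the smallest differences were Mc2r (-0.504 in XY), Rxfp3 (-0.505 in XX), Arg1 (-0.507 in XX) and Hey1 (-0.507 in XY). Just outside were Aldh3a2 (-0.495 in XX), Des (-0.495 in XX), Fam181b (-0.494 in XX) and Rnf5 (-0.493 in XY).

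**Figure D1:**
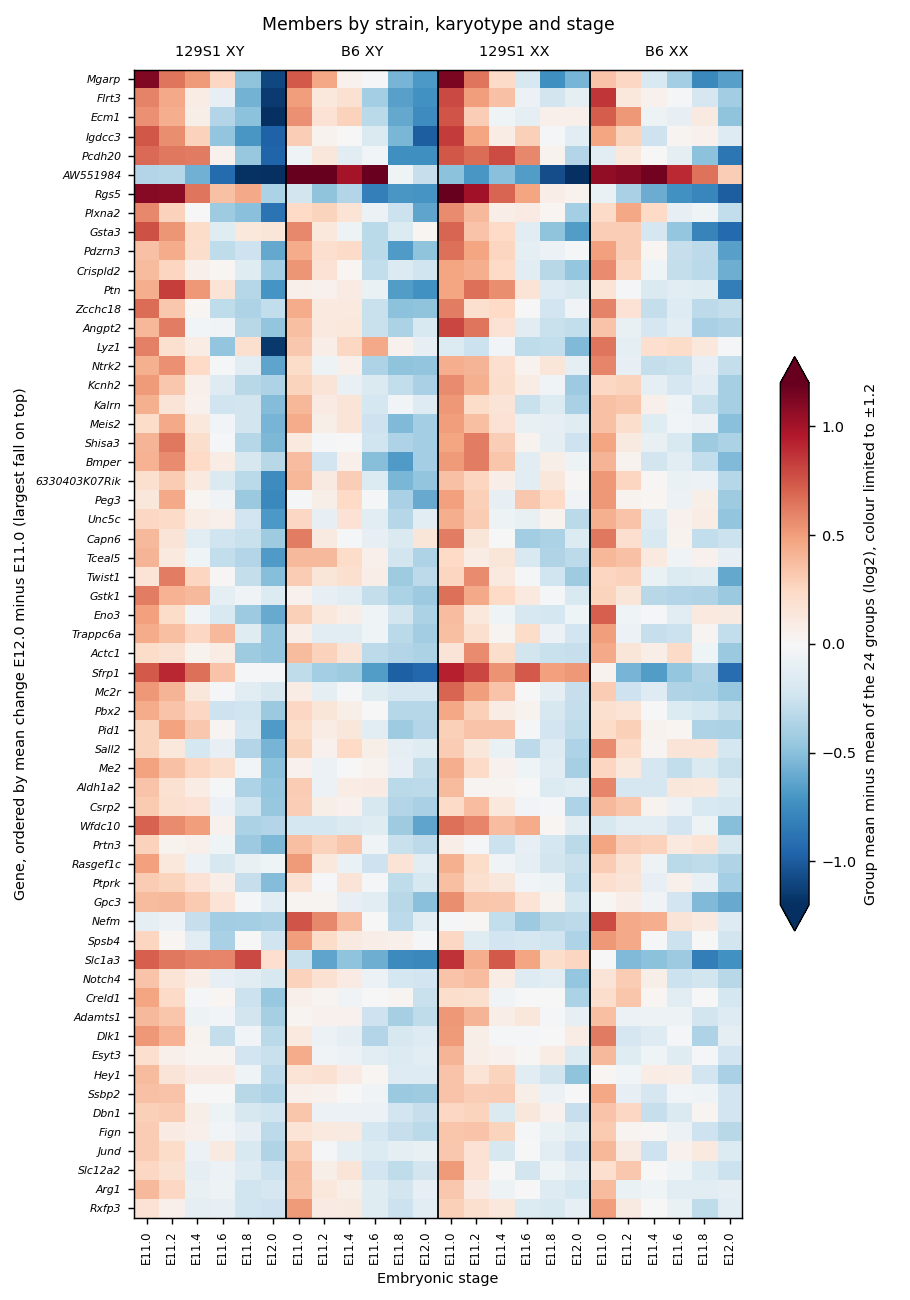
Heat map of the 60 members (rows, ordered by mean difference between E12.0 and E11.0) over the 24 groups (columns, stages running left to right within 129S1 XY, B6 XY, 129S1 XX and B6 XX). Colour is the group mean minus the gene's mean over the 24 groups on the log2 scale, limited to ±1.2; the first and last column of each block hold the arrays that chose the members, and AW551984, Rgs5, Sfrp1 and Slc1a3 also differ between the strain blocks.

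The decline could be tested only on the 49 arrays of E11.2 to E11.8, which the selection did not use. For each karyotype a linear trend over these 4 stages was fitted with limma, scaled to the change over the 3 steps and averaged over strains, and p-values were adjusted over 12849 probes. Of the 60 members, 45 fell in XY gonads (3.67% of all probes fell) and 0 rose (6.19% of all probes rose). In XX gonads 27 fell (2.03% of all probes) and 0 rose (2.32% of all probes). In both karyotypes 24 fell (0.607% of all probes), 21 passed only in XY, 3 only in XX and 12 in neither; the sets passing in 1 karyotype alone do not show that the trends differ, which is tested further on.

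The median trend of the members was -0.49 in XY and -0.37 in XX gonads, beside -0.02 and 0.00 over all probes tested, and 59 trends in XY and 55 in XX gonads were below 0. Fitted within each strain, 59 members were below 0 in 129S1 XY, 58 in B6 XY, 59 in 129S1 XX and 50 in B6 XX, and 47 were below 0 in all 4. The E11.8 arrays lay below all E11.2 arrays at 17 members in XY gonads (0.446% of all genes) and at 8 in XX gonads (0.47% of all genes). Without the B6 XY E11.2 array that stood apart, 40 members fell in XY gonads. With each of the 49 arrays left out in turn, 37 of the 45 XY calls and 18 of the 27 XX calls were kept throughout. The XX calls that ended with at least 1 array left out were those of Me2 (9 arrays), Flrt3 (8), Csrp2 (7), Plxna2 (6), Capn6 (6), Angpt2 (5), Twist1 (5), Slc12a2 (5) and Pdzrn3 (3). The XY calls that did so were those of Gsta3 (8), Nefm (8), Kalrn (5), Ntrk2 (4), Actc1 (3), Bmper (2), Csrp2 (1) and Rgs5 (1, the third replicate of 129S1 XY at E11.8). All 60 members passed the filter on dim probes, which used all stages. On the arrays of E11.2 to E11.8 alone the same filter passed 58. The members that passed only with the E11.0 and E12.0 arrays included entered the tests through arrays that chose them. They are kept in the counts above, so those counts are not wholly independent of the selection.

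The median step was below 0 between every pair of neighbouring stages in both karyotypes. In XY gonads the median steps were -0.14, -0.13, -0.18, -0.17 and -0.12 from E11.0 to E12.0, and in XX gonads -0.17, -0.20, -0.12, -0.07 and -0.18. The outer steps share arrays with the selection. The median member had passed 20.3% of its XY difference by E11.2, 32.2% by E11.4, 57.3% by E11.6 and 82.1% by E11.8, and 24.4%, 53.6%, 68.7% and 75.7% of its XX difference at the same stages. These shares are descriptions with no test between the karyotypes.

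**Figure D2:**
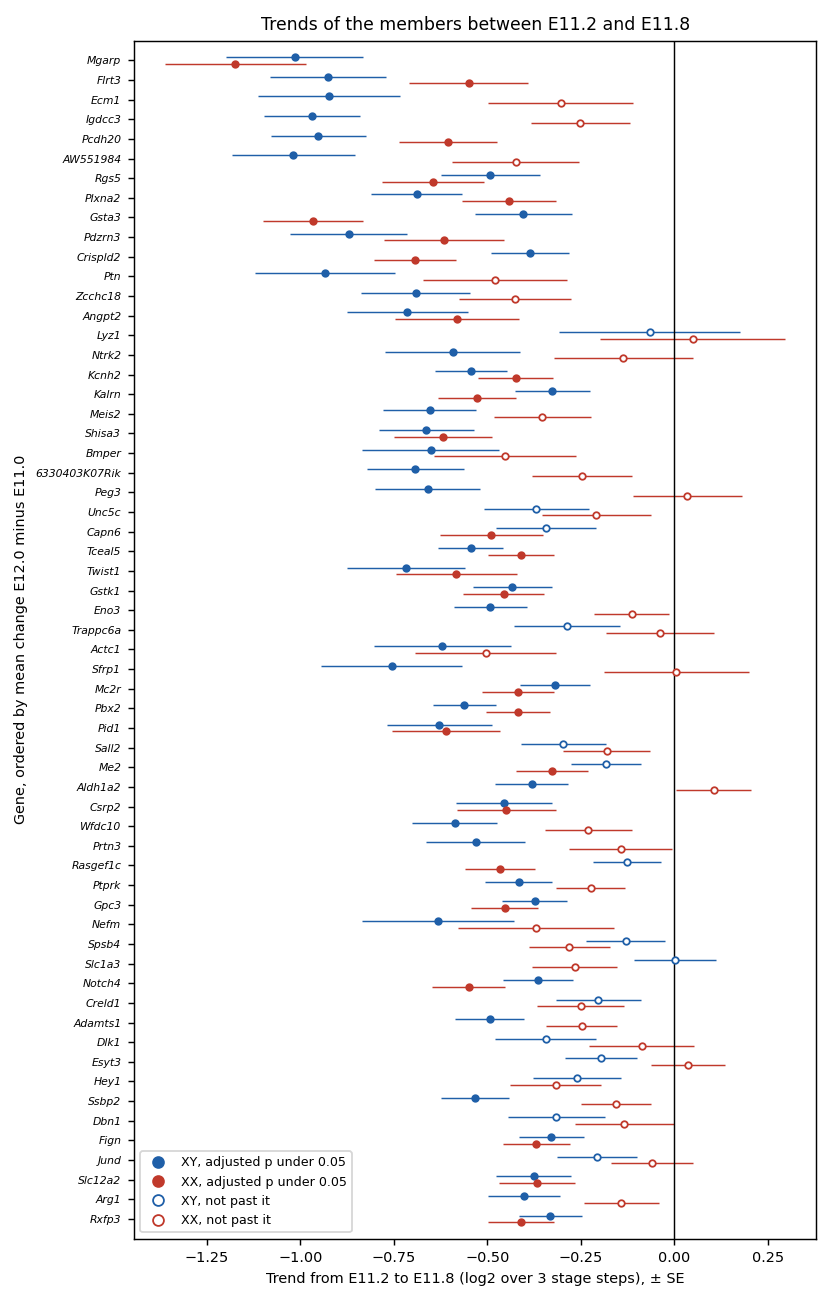
Trend from E11.2 to E11.8 of each of the 60 members in XY (blue) and XX (red) gonads, as the fitted log2 change over 3 stage steps with its standard error. Filled points passed an adjusted p of 0.05 and open points did not; 45 XY and 27 XX points are filled, and all filled points lie below 0.

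Mgarp had the largest fall in XX gonads between these stages. It was at 8.25 to 8.71 (median 8.36) in XY gonads at E11.8, against 8.96 to 9.79 (median 9.64) at E11.2, and at 8.02 to 8.55 (median 8.13) in XX gonads at E11.8, against 8.98 to 9.89 (median 9.32) at E11.2. The stages did not overlap in either karyotype, and the trend was -1.01 ± 0.18 (SE) in XY gonads (limma adjusted p = 3.4e-05) and -1.17 ± 0.19 in XX gonads (1.7e-05).

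Secreted and matrix proteins came to 9 of the members, and all 9 fell in XY (3.67% of all probes) and 3 in XX gonads (2.03% of all probes). This group and the other groups by role below were drawn up after the values were seen, so their counts are descriptions. Crispld2, a secreted protein of the CRISP family, fell by 0.39 ± 0.11 in XY gonads (adjusted p = 0.00902), where it was 7.80 to 8.12 at E11.8 and 8.05 to 8.79 at E11.2. It fell by 0.69 ± 0.11 in XX gonads (1.1e-05), at 7.52 to 8.02 against 8.12 to 8.63. Its XX arrays of these stages were apart and its XY arrays overlapped slightly. Angpt2, an angiopoietin that binds the endothelial receptor Tek, fell by 0.71 ± 0.16 in XY gonads (0.00118), with 7.42 to 7.56 at E11.8 against 7.61 to 9.004 at E11.2. In XX gonads its trend was -0.58 ± 0.17 (0.0293). Gpc3, a glypican that carries heparan sulfate at the cell surface, was the most abundant member and fell by 0.37 ± 0.09 in XY (0.00155) and 0.45 ± 0.09 in XX gonads (4.7e-04).

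The other 6 secreted proteins passed in XY gonads alone. Ecm1 was 9.44 to 9.996 (median 9.75) at E11.8 and 10.01 to 11.08 (median 10.54) at E11.2 in XY gonads, a fall of 0.92 ± 0.19 (2.9e-04), and its XX trend was -0.30 ± 0.19 (0.391). The heparin-binding growth factor Ptn fell by 0.93 ± 0.19 (2.1e-04) and the Wnt antagonist Sfrp1 by 0.76 ± 0.19 (0.00346) in XY gonads, with XX trends of -0.48 and 0.01. Bmper, which binds BMPs outside the cell, fell by 0.65 ± 0.18 (0.0121) in XY gonads. Leaving out the B6 XY E11.2 array that stood apart ended the call for Bmper. The metalloprotease Adamts1 (-0.49 in XY) and the WAP-domain protein Wfdc10 (-0.59 in XY) completed the group, with XX trends of -0.25 and -0.23. The difference between karyotypes did not pass for any of these 6, the smallest adjusted p being 0.105 for Sfrp1.

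Among 11 receptors, adhesion proteins and membrane ligands, 9 fell in XY (3.67% of all probes) and 6 in XX gonads (2.03% of all probes). All 6 fell in both (0.607% of all probes). Pcdh20, a protocadherin, was 7.85 to 8.37 (median 8.05) in XY gonads at E11.8 and 8.38 to 9.34 (median 9.18) at E11.2, without overlap, a fall of 0.95 ± 0.13 (4.3e-08). In XX gonads it was 7.96 to 9.04 (median 8.30) and 8.74 to 9.79 (median 8.93), a fall of 0.61 ± 0.13 (0.00179). Flrt3 fell by 0.93 ± 0.15 in XY (8.0e-06) and by 0.55 ± 0.16 in XX gonads (0.0325). Plxna2, a receptor for semaphorins, fell by 0.69 ± 0.12 in XY (2.2e-05) and 0.44 ± 0.13 in XX gonads (0.0275).

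Notch4, a Notch receptor of endothelium, was at 9.47 to 9.90 (median 9.76) in XY gonads at E11.8, against 9.90 to 10.23 (median 10.01) at E11.2, so that the stages met at their edges. In XX gonads it was at 9.603 to 9.867 (median 9.71) at E11.8, apart from 9.90 to 10.52 (median 10.23) at E11.2. Its trend was -0.36 ± 0.09 in XY (0.00512) and -0.55 ± 0.10 in XX gonads (8.5e-05). Mc2r, the receptor for ACTH that marks the adrenal primordium, fell by 0.32 ± 0.09 in XY (0.0165) and 0.42 ± 0.10 in XX gonads (0.00418), and Rxfp3, a receptor for relaxin-3, by 0.33 and 0.41 (0.00506 and 0.0017). Ntrk2, the BDNF receptor, fell by 0.59 ± 0.18 in XY gonads (0.0226), a call that ended without the B6 XY E11.2 array that stood apart, and the receptor phosphatase Ptprk by 0.42 ± 0.09 (5.9e-04). The netrin receptor Unc5c (-0.37 in XY, adjusted p = 0.0924, and -0.21 in XX, 0.434) and the Delta-like protein Dlk1 (-0.34, 0.105, and -0.09, 0.757) did not pass in either karyotype.

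Of 8 transcription factors and partners, 5 fell in XY (3.67% of all probes) and 2 in XX gonads (2.03% of all probes). Pbx2, a homeodomain partner of Hox and Meis proteins, was 8.57 to 8.92 (median 8.73) in XY gonads at E11.8, below all arrays of E11.2, at 9.06 to 9.51 (median 9.25). It fell by 0.56 ± 0.08 in XY (6.6e-07) and by 0.42 ± 0.09 in XX gonads (9.8e-04), where neither of its other probes passed. Twist1, a bHLH factor of embryonic mesenchyme, fell by 0.72 ± 0.16 in XY (7.6e-04) and 0.58 ± 0.16 in XX gonads (0.0238). Meis2, a homeobox factor, fell by 0.65 ± 0.12 in XY gonads (9.5e-05), with an XX trend of -0.35 ± 0.13 (0.106). Ssbp2, a cofactor of LDB proteins, fell by 0.53 ± 0.09 (1.0e-05) and the imprinted zinc-finger gene Peg3 by 0.66 ± 0.14 (5.4e-04) in XY gonads. The zinc-finger factor Sall2, the Notch target Hey1 and the AP-1 member Jund passed in neither karyotype, with XY trends of -0.30, -0.26 and -0.21 and XX trends of -0.18, -0.32 and -0.06.

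Enzymes of metabolism and mitochondrial proteins numbered 7, of which 6 fell in XY (3.67% of all probes) and 4 in XX gonads (2.03% of all probes). Gsta3 fell by 0.40 ± 0.13 in XY (0.033) and 0.97 ± 0.13 in XX gonads (6.9e-07). In XX gonads it was 7.95 to 8.57 (median 8.43) at E11.8, below all E11.2 arrays at 8.92 to 9.58 (median 9.32), while XY levels overlapped at 8.50 to 9.20 and 8.76 to 9.66. Gsta3 belongs to a family of similar transferases, so the transcript read is uncertain. Gstk1, a glutathione transferase of another class, fell by 0.43 ± 0.11 in XY (0.00281) and 0.46 ± 0.11 in XX gonads (0.00611). Eno3, the muscle enolase (-0.49 ± 0.10, 1.7e-04), Aldh1a2 (-0.38 ± 0.10, 0.00445) and Arg1, arginase (-0.40 ± 0.10, 0.00265), passed in XY gonads, and Me2, a mitochondrial malic enzyme, in XX gonads (-0.33 ± 0.10, 0.0382).

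Contractile, cytoskeletal and pericyte proteins came to 8, of which 6 fell in XY (3.67% of all probes) and 5 in XX gonads (2.03% of all probes). Rgs5, a regulator of G protein signaling that marks pericytes, fell by 0.49 ± 0.13 in XY (0.00763) and 0.65 ± 0.14 in XX gonads (0.00134). Csrp2, a LIM protein of smooth muscle, fell by 0.46 ± 0.13 in XY (0.0117) and 0.45 ± 0.13 in XX gonads (0.0352). Kalrn, a guanine nucleotide exchange factor, fell by 0.33 and 0.53 (0.0263 and 5.4e-04), and Fign, a microtubule-severing ATPase, by 0.33 and 0.37 (0.00601 and 0.00689). Actc1, cardiac actin, fell by 0.62 ± 0.18 (0.0185) and Nefm, a neurofilament subunit, by 0.63 ± 0.20 (0.0329) in XY gonads, and Capn6, a calpain-like protein, by 0.49 ± 0.14 (0.0261) in XX gonads. The XY calls for Actc1, Csrp2 and Nefm ended without the B6 XY E11.2 array that stood apart, at -0.48 (0.0757), -0.33 (0.0526) and -0.38 (0.131). Actin genes are similar in sequence, so the identity of the transcript read for Actc1 is uncertain.

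Of 3 channels and transporters, 2 fell in both karyotypes (0.607% of all probes). Kcnh2, a potassium channel, fell by 0.54 ± 0.10 in XY (2.4e-05) and 0.42 ± 0.10 in XX gonads (0.00487). The cotransporter Slc12a2 fell by 0.38 and 0.37 (0.00653 and 0.0241). Another bright probe of Slc12a2 passed in XY gonads (-0.38, 0.00465) and not in XX gonads (-0.26, 0.132). Slc1a3, the remaining transporter, passed in neither. Of 2 enzymes of blood cells, Prtn3, a neutrophil protease, fell in XY gonads by 0.53 ± 0.13 (0.00381) and Lyz1 passed in neither karyotype. Of the 12 members outside all these groups, 7 fell in XY (3.67% of all probes) and 5 in XX gonads (2.03% of all probes). Pdzrn3, a ubiquitin ligase, fell by 0.87 ± 0.16 in XY (3.0e-05) and 0.62 ± 0.16 in XX gonads (0.0148), and Shisa3, which holds back Wnt and FGF receptors, by 0.66 ± 0.13 (9.7e-05) and 0.62 ± 0.13 (0.00137). Tceal5 was below all E11.2 arrays at E11.8 in XY gonads (8.09 to 8.47 against 8.62 to 9.08) and fell by 0.54 ± 0.09 (2.6e-06) there and by 0.41 ± 0.09 in XX gonads (0.00195). AW551984 and 6330403K07Rik, which have no established names, fell in XY gonads, with trends of -1.02 ± 0.16 (3.6e-06) and -0.69 ± 0.13 (6.6e-05). Pid1, a regulator of insulin signaling, fell by 0.63 ± 0.14 in XY (0.00101) and 0.61 ± 0.14 in XX gonads (0.00595), Zcchc18, a zinc-knuckle protein, by 0.69 ± 0.15 in XY gonads (4.6e-04), and Rasgef1c, an exchange factor of the Ras family, by 0.47 ± 0.09 in XX gonads (6.6e-04).

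Of the 12 members that passed in neither karyotype, Lyz1 and Slc1a3 had the XY trends closest to 0. Lyz1, a lysozyme, had trends of -0.07 ± 0.24 in XY (0.932) and 0.05 ± 0.25 in XX gonads (0.932), with levels of 8.24 to 10.16 in XY gonads at E11.8 and 8.54 to 9.41 at E11.2. Its arrays spread widely, and because Lyz1 and Lyz2 are alike in sequence, which transcript was read is uncertain. Slc1a3, a glutamate transporter, had trends of 0.00 ± 0.11 (0.996) and -0.27 ± 0.11 (0.172). The trafficking subunit Trappc6a, the SOCS-box protein Spsb4, the EGF-domain protein Creld1, the membrane-tethering protein Esyt3 and the actin-binding protein Dbn1 had XY trends of -0.29, -0.13, -0.20, -0.20 and -0.32, and XX trends of -0.04, -0.28, -0.25, 0.04 and -0.13. A missing call in these fits does not show that a transcript was level.

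Whether the fall differed between karyotypes was tested by the difference of the trends. It passed for 3 members, all with the steeper fall in XY gonads (1.45% of all probes), and for 0 with the steeper fall in XX gonads (2.84% of all probes). Igdcc3 was 9.91 to 10.65 (median 10.23) in XY gonads at E11.8 and 10.44 to 11.56 (median 11.12) at E11.2, against 10.75 to 11.15 (median 10.82) and 11.03 to 11.45 (median 11.23) in XX gonads. Its trends were -0.97 ± 0.13 in XY and -0.25 ± 0.13 in XX gonads, a difference of -0.72 (adjusted p = 0.0101). It was kept whichever array was left out and was -0.95 within 129S1 (0.0366) and -0.48 within B6 (0.451). Taken as E11.8 minus E11.2 in place of the trend, the difference did not pass for any of the 3 members, at -0.56 for Igdcc3 (0.101), -0.67 for Peg3 (0.067) and -0.47 for Aldh1a2 (0.0524).

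Peg3 was 10.261 to 11.397 (median 10.81) in XY gonads at E11.8 and 11.03 to 11.87 (median 11.54) at E11.2, while the XX arrays stayed at 10.97 to 11.61 (median 11.45) and 11.043 to 11.754 (median 11.401). The difference of trends was -0.69 (0.0309), and 10 of 49 arrays, left out singly, ended the call. Aldh1a2, which makes retinoic acid, was 8.37 to 8.74 (median 8.55) in XY gonads at E11.8, below all E11.2 arrays at 8.78 to 9.33 (median 8.92). In XX gonads it was 8.65 to 9.10 (median 8.91) and 8.31 to 9.26 (median 8.89), and the difference was -0.49 (0.0268), lost with any of 6 arrays left out. Both were lower at E12.0 than at E11.0 in XX gonads by selection, and their XX trends between E11.2 and E11.8 were 0.03 ± 0.15 and 0.11 ± 0.10. A second probe of Aldh1a2 had trends of -0.33 in XY (0.0455) and 0.10 in XX gonads (0.663). Gsta3 had the opposite sign, with a difference of 0.56 that did not pass (0.0732).

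**Figure D3:**
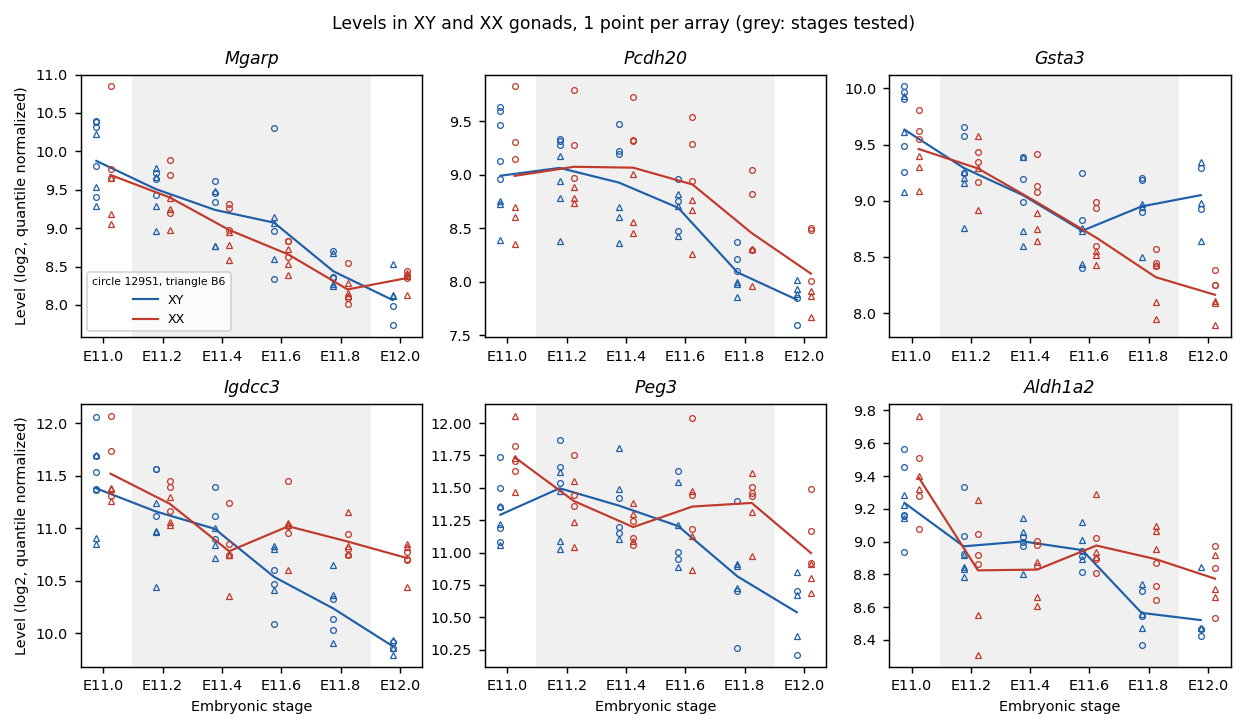
Levels of 6 members on every array by stage, XY in blue and XX in red, circles for 129S1 and triangles for B6, on the log2 scale; lines join the means of the strains, and grey marks the 4 stages that were tested. Mgarp declines in both karyotypes, the XY lines of Igdcc3, Peg3 and Aldh1a2 lie below the XX lines at E11.8 and E12.0, and the XX line of Gsta3 lies below the XY line at these stages.

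Mean levels over E11.2 to E11.8 were lower in XY than in XX gonads for 2 members (1.97% of all probes) and higher for 0 (3.26% of all probes). Igdcc3 was at 9.91 to 11.56 (median 10.80) in XY and 10.36 to 11.45 (median 10.99) in XX gonads, a difference of -0.24 (0.0198). Plxna2 was at 9.03 to 10.35 (median 9.65) in XY and 9.47 to 10.49 (median 9.91) in XX gonads, a difference of -0.21 (0.0394). The arrays overlapped for both genes, and 21 of 49 arrays, left out singly, ended the call for Plxna2.

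The strains differed in level at more members. Over E11.2 to E11.8, 27 members differed between 129S1 and B6 gonads (24.7% of all probes), 21 of them higher and 6 lower in 129S1, while of all probes 1653 were higher and 1516 lower. Without the B6 XY E11.2 array that stood apart, 31 members differed in level between the strains. Slc1a3 was at 9.37 to 10.18 (median 9.75) on the 24 arrays of 129S1 and at 8.23 to 8.99 (median 8.62) on the 25 of B6, the only member without overlap, and differed by 1.15 ± 0.06 (1.4e-24). Rgs5 was at 8.30 to 9.69 (median 9.08) in 129S1 and 7.54 to 8.53 (median 7.76) in B6 gonads (1.21 ± 0.07, 7.7e-22), and Sfrp1 at 9.86 to 11.47 (median 10.77) and 8.99 to 10.84 (median 9.604) (1.13 ± 0.10, 2.8e-14). AW551984 ran the other way, at 7.83 to 9.09 (median 8.61) in 129S1 and 8.98 to 10.98 (median 10.30) in B6 gonads, a difference of -1.65 ± 0.09 (8.3e-24). Its other probes differed in the same direction, by -1.04 and -1.50. Slc1a3, Rgs5 and Sfrp1 were each read by a single probe, so their strain differences could not be compared with another probe.

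The remaining strain differences were smaller. Secreted and matrix proteins made up 7 of the 21 members that were higher in 129S1, with Wfdc10 (0.46), Bmper (0.45), Ptn (0.43), Gpc3 (0.37), Angpt2 (0.23) and Adamts1 (0.20) beside Sfrp1. Pcdh20 (0.52 ± 0.07, 6.5e-09), Gstk1 (0.40, 3.7e-08), Ntrk2 (0.38), Mc2r (0.35), Shisa3 (0.32), Trappc6a (0.30), Gsta3 (0.29), Dlk1 (0.20), Me2 (0.20), Ssbp2 (0.18), Kcnh2 (0.15) and Fign (0.14) were also higher in 129S1. Nefm (-0.50), Prtn3 (-0.27), Spsb4 (-0.25), Tceal5 (-0.23) and Sall2 (-0.22) were lower. The calls for Angpt2, Kcnh2 and Dlk1 were lost with some single arrays left out.

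**Figure D4:**
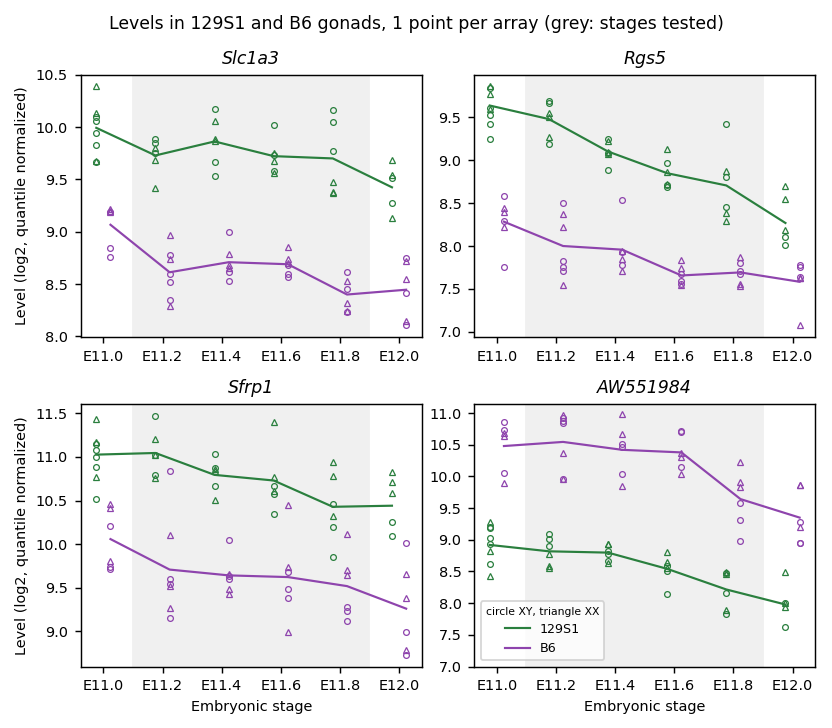
Levels of 4 members on every array by stage, 129S1 in green and B6 in purple, circles for XY and triangles for XX, on the log2 scale; lines join the means of the karyotypes and grey marks the tested stages. Slc1a3, Rgs5 and Sfrp1 lie higher in 129S1, AW551984 lies higher in B6, and the strain lines of Slc1a3, Rgs5 and AW551984 stay apart at all 6 stages.

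A difference of trend between the strains passed for 0 members with the steeper fall in 129S1 (0.0233% of all probes) and 0 with the steeper fall in B6 (0.0467% of all probes) by limma after adjustment. An unadjusted p under 0.05 was reached by 10 of the 60 members and by 920 of all 12849 probes. Rgs5, for instance, had trends of -0.65 ± 0.19 in 129S1 XY, -0.34 ± 0.18 in B6 XY, -0.90 ± 0.19 in 129S1 XX and -0.40 ± 0.19 in B6 XX gonads. Of the 60 members, 45 had the lower value in 129S1, with a median difference of -0.13 beside -0.01 over all probes.

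Other probes of the same genes were read for 20 members, 31 probes in all, while 40 members had a single probe. Of these 31, 21 were lower at E12.0 than at E11.0 in both karyotypes, 7 by 0.5 or more in both, and 10 were higher in at least 1 karyotype. Many of the others were dim. Among the brighter ones, the second probe of Gpc3 had trends of -0.50 in XY (1.4e-04) and -0.33 in XX gonads (0.0429), that of Flrt3 -1.04 (1.4e-06) and -0.54 (0.0441), and that of Kcnh2 -0.57 (0.00218) and -0.33 (0.169). The other probes of Pbx2 passed in XY gonads (-0.53, 0.00212, and -0.46, 0.0284) and not in XX gonads (-0.34, 0.122, and 0.09, 0.777). Those of AW551984 had XY trends of -1.07 (1.4e-06) and -0.38 (0.0225), and XX trends of -0.35 (0.249) and -0.43 (0.0249). The second probe of Ssbp2, at a mean of 8.77, passed in XY (-0.53, 2.7e-04) and not in XX gonads (-0.02, 0.945). Its XX difference between E12.0 and E11.0 was -0.105, so the selection of Ssbp2 in XX gonads rests on 1 probe. For Notch4 the second probe, at a mean of 7.55, had trends of -0.06 and -0.01, so that the fall of Notch4 rests on 1 probe.

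Gene lists were counted whole, whether or not they hold a member. Of 18 tested markers of ridge and mesonephric mesenchyme, 4 fell and 2 rose in XY gonads and 2 fell and 1 rose in XX gonads. The members Meis2 and Twist1 are among them, beside Nr2f1 (-1.29 in XY and -0.69 in XX), an orphan receptor set aside by name, and Prrx1 (-0.41 and -0.08), while Pdgfra (0.34) and Tcf21 (0.39) rose in XY gonads. The median trend of the list was -0.27 in XY and -0.04 in XX gonads, beside -0.02 and 0.00 over all probes. Its mean level was 9.03 to 9.25 at E11.8 and 9.11 to 9.62 at E11.2 in XY gonads, and 9.20 to 9.40 and 9.19 to 9.68 in XX gonads. The part of these cells in the fall of the members was not tested.

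Of 13 endothelial markers, 0 fell in XY and 1 fell in XX gonads (Plvap, -0.45), with Plvap at -0.32 in XY (0.0503), and the list's mean was 9.10 to 9.37 at E11.8 against 9.12 to 9.56 at E11.2 in XY gonads, and 9.08 to 9.37 against 9.11 to 9.80 in XX gonads. Of 14 macrophage and leukocyte markers, Coro1a (-0.67) and Cx3cr1 (-0.32) fell in XY gonads and 0 fell in XX gonads, Lyz1 being the member, and their mean was 7.83 to 8.27 at E11.8 against 8.19 to 8.65 at E11.2 in XY gonads. Of 5 smooth muscle and pericyte markers, Rgs5 fell in both karyotypes, Des fell in XX gonads (-0.47) and Myh11 rose in both (0.21 in XY and 0.41 in XX), and the mean was 8.25 to 8.84 at E11.8 against 8.04 to 9.04 at E11.2 in XY gonads. The part of endothelium, macrophages or pericytes was not tested.

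Of 8 markers of coelomic epithelium, the member Aldh1a2 and Krt18 (-0.29) fell in XY gonads, and 0 fell and Upk3b (0.52) rose in XX gonads, with a mean of 9.04 to 9.30 at E11.8 against 9.06 to 9.36 at E11.2 in XY gonads and 9.05 to 9.399 against 8.99 to 9.31 in XX gonads. Germ cell markers hold no member and moved the other way. Of 12 tested, 7 rose and 1 fell (Rec8, -0.38) in XY gonads and 3 rose and 0 fell in XX gonads, with median trends of 0.46 and 0.37. Dazl, a germ cell RNA-binding protein, rose by 1.03 in XY (4.9e-06) and 0.72 in XX gonads (0.00649). The mean level of the list was 8.54 to 9.43 at E11.8 against 8.50 to 8.98 at E11.2 in XY gonads, and 8.897 to 9.607 against 8.58 to 9.30 in XX gonads. The part of germ cells in the fall of the members was not tested.

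Among 20 tested genes of Wnt signaling, 2 fell and 2 rose in XY gonads and 0 fell and 4 rose in XX gonads, with Sfrp1 as the member and Wnt4 (-0.90 in XY, 0.95 in XX) turning opposite ways. Among 15 of BMP signaling, Bmp4 (-0.90), Id3 (-0.61), Smad6 (-0.43) and Msx1 (-1.54) fell in XY gonads and Bmp4 (-0.70) in XX gonads; Bmp4 was set aside by name, and no member belongs to the list. In FGF signaling, 1 of 12 fell in XY gonads, the member Flrt3, and 7 rose, among them Etv4 (1.37), Fgf9 (1.36), Etv5 (0.83) and Dusp6 (0.47), while in XX gonads 3 fell (Flrt3, Fgf10 at -0.55 and Dusp6 at -0.35) and 2 rose. Of 8 Notch genes, Notch4 fell in both karyotypes, the member Hey1 passed in neither and Heyl rose in XY gonads (0.25).

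Of 13 imprinted genes, Peg3, Peg10 (-0.31) and Grb10 (-0.33) fell in XY gonads and 0 fell in XX gonads, with Dlk1 as the other member. Of 8 genes of the let-7 and Lin28 axis, Igdcc3 and the RNA-binding protein Igf2bp3 (-0.28) fell in XY gonads and Igf2bp3 (-0.30) in XX gonads. Of 7 retinoic acid genes, Aldh1a2 fell in XY gonads, Cyp26b1, which degrades retinoic acid, rose there (0.45), and Aldh1a1 fell in XX gonads (-0.73). Among 4 tested steroidogenic and adrenal markers, Mc2r fell in both karyotypes and the side-chain cleavage enzyme Cyp11a1 in XY gonads (-0.41). Cell division (9 genes) and cholesterol synthesis (14 genes) held 0 calls in either karyotype.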

How the data were processed

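Whole gonad pairs were hybridised to Illumina MouseRef-8 v2.0 BeadChips. Per the study's methods, the authors processed the scans in GenomeStudio, quantile normalized them with beadarray and deposited log2 values, with R 2.12.0 named in their processing notes. All 74 arrays shared 1 maximum, and array medians lay between 7.401 and 7.403. An accompanying table of values before normalization has columns that could not be matched to samples and was not used. The number of arrays limits the precision.

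The 60 members and all gene lists were chosen with earlier results of these data known, and the role groups after the values were seen. Genes were named from the probe annotation (23978 of 25697 probes). Means of 24 groups were fitted with limma 3.58.1 (R 4.3.3) on all 74 arrays. Probes were kept if they lay in the brighter portion by the second-highest array of their best group (12849 probes, lowest such value 7.592). Contrasts used only the 49 arrays of E11.2 to E11.8: a linear trend per karyotype (stage weights 0.9 and 0.3 with sign, scaled to 3 steps), the XY minus XX difference of trend and level, and the 129S1 minus B6 difference of both. P-values were adjusted by Benjamini-Hochberg over kept probes at 0.05. The fit was tested on simulated data first. Per the study's methods, the gonad pairs of a group came from more than a single litter. No source used here tells which embryos were littermates, so p-values measure the spread between embryos and treat any littermates as independent.

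Named genes were the 24 members with the most negative mean change, the 10 with the smallest adjusted p per trend, up to 10 past the threshold in each test of a difference, up to 4 members and 4 other genes per list, the 4 members on either side of the -0.5 limit, and members whose other probes went the other way; the remaining members were named after their values were seen. Alternatives changed the probe filter, the contrast, array weights, a residual component, a replicate block, centring, probe choice, strain and single arrays. Python 3.11.15, pandas 2.3.3, numpy 2.4.6, matplotlib 3.10.9 and the R package data.table (version 1.17.8) were used.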

Additional observations from a re-analysis of the deposited data

Results flagged for a closer look

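Among 120 groups of 4 or 5 arrays tested over the members, 5 held an array that stood apart from the others, where chance gives about 5%, or 6. Groups with fewer arrays were not searched, so an array apart there would not show. In 4 of the 5 it was the first replicate of B6 XY at E11.2. AW551984 was at 9.965 on that array and at 10.848 to 10.926 on the other 3. Rgs5 was at 8.506, against 7.713 to 7.828, 6330403K07Rik at 11.760, against 10.956 to 11.049, and Actc1 at 8.890, against 7.557 to 7.759. Without that array the XY trend was -1.12 for AW551984 (limma adjusted p = 2.5e-07), -0.41 for Rgs5 (0.0314) and -0.61 for 6330403K07Rik (3.4e-04), and the call for Actc1 was lost. In the remaining group, Pbx2 was at 9.258 on the fifth replicate of 129S1 XY at E11.0 and at 9.473 to 9.560 on the others, a stage that entered no test.

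The trends of 3 members differed between XY and XX gonads by the test of the difference itself, all with the steeper fall in XY. Of all probes, 1.45% passed in this direction and 2.84% in the other. The calls for Peg3 and Aldh1a2 ended with any of 10 and 6 arrays left out singly. With E11.8 minus E11.2 in place of the trend, the difference did not pass for any of them. The XY minus XX difference was -0.7162 for Igdcc3, -0.6942 for Peg3 and -0.4867 for Aldh1a2.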

How the results depend on the processing

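No called direction was reversed by any alternative. Within 129S1 alone 11 members fell in XX gonads, and within B6 alone 7 fell in XX and 20 in XY gonads, on fewer arrays. The XY minus XX trend passed for 0 members with E11.8 minus E11.2 in place of the trend, 7 with the first residual component (34.9% of the variance within groups) as covariate, 1 within 129S1 and 0 within B6. The XY minus XX level passed for 1 member with no filter on dim probes, 4 with array weights, 1 within 129S1 and 0 within B6. The strain difference in trend passed for 1 member with array weights and 1 with the residual component. The cause of these shifts was not tested. At limits of -0.4 and -0.6 the selection gave 110 and 32 members.

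With single arrays left out, 19 to 27 members fell in XX and 40 to 45 in XY gonads, the XY minus XX trend passed for 1 to 5 and its level for 1 to 3, the strain level for 24 to 31 and the strain trend for 0 to 1, and the selection gave 51 to 66 members. The XY minus XX trend passed for 1 member without the 129S1 XX E11.8 replicate 1, the 129S1 XY E11.8 replicate 3, the B6 XX E11.2 replicate 2 or the B6 XY E11.8 replicate 3. It passed for 5 without the 129S1 XY E11.6 replicate 2, the B6 XX E11.2 replicate 1 or the B6 XY E11.8 replicate 2, and the strain trend for 1 without the B6 XX E11.2 replicate 1. With the replicate block the counts were 27 in XX, 47 in XY, 4 and 2 between karyotypes, and 28 and 0 between strains; same-numbered arrays correlated between -0.661 and 0.754 (median 0.112, 51.2% of 806 pairs over 0.1) and arrays of different number at a median of -0.0442 (1820 pairs), and no label ties a number to a litter or day. Arg1 and Rxfp3 lie below the array median of 7.401, where signal over background limits what can be measured.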
